A study of Mus musculus with 2 samples.

Results

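The serpins are a family of proteins that share 1 fold, and most of them block serine proteases. They were taken here from the mouse genes whose symbol starts with Serpin, except Serpina3n, Serping1 and Serpinh1. Of 65 symbols considered in the RefSeq gene table, 6 of them pseudogenes, 31 had a value in at least 1 library of brown adipose tissue, a fat depot that makes heat. These 31 are among 16174 genes with a value in the series. The knockout library came from C57BL/6 mice of genotype D3Bfl/fl-UCP1-Cre+/-. In these mice Cre recombinase, which cuts the floxed D3B alleles, is made under the Ucp1 promoter of brown adipocytes. The control library came from C57BL/6 mice of genotype D3Bfl/fl, which carry the same floxed alleles and for which no Cre is named. Both groups were female, as the title of the series says, were 45 weeks old and had eaten chow for 45 weeks. D3B is read as Dnmt3b, a de novo DNA methyltransferase, from knowledge of the study. There was 1 library per genotype, from a number of mice that is not given, so no test between genotypes is possible, and the differences below have no replicate check. The Cre acts in cells that use the Ucp1 promoter, so other cells of the tissue keep the gene, and the Cre itself cannot be told apart from the loss of D3B.

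An inhibitory serpin presents a reactive centre loop, encoded near the end of the coding sequence, as bait to its protease. Once the loop is cut, it inserts into the body of the serpin and the protease is trapped in a covalent complex. Clades are named by letter. Clade A holds mostly secreted proteins of liver and plasma, clade B holds mostly intracellular proteins, clades C, D, E and F hold regulators of clotting, fibrinolysis and vessel growth, and clade I holds neuroserpin and its relative. In fat, Serpinf1 (pigment epithelium-derived factor) is a well-known secreted product, and Serpina12 is the adipokine vaspin.

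The knockout library held 10068359 expected counts over 15490 genes and the control library 9666528 over 15428. An expected count estimates how many reads a gene gave, and a read with several possible genes is split between them. Levels are given in FPKM, a level scaled to transcript length and to the depth of the library, as the authors deposited them. Each interval after a ratio is an exact 95% counting interval. It covers counting error only, compares these 2 libraries and treats PCR copies as independent molecules. The libraries ran on lane 1 (knockout) and lane 2 (control), and the lane and the genotype cannot be told apart. Dnmt3b itself was at 0.18 FPKM in the knockout sample and 0.39 FPKM in the control sample, a ratio of 0.462 with an interval of 0.159 to 1.20 that included 1. Ucp1, the defining gene of the tissue, was at 4271 FPKM in the knockout sample and 4987 FPKM in the control sample. In bulk tissue, fewer cells of a type and less RNA per cell cannot be told apart.

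Clade A was listed with 15 of its 28 genes, clade B with 10 of 29, clade E with 1 of 2, clade F with 2 of 2, clade I with 1 of 2, and clades C and D with their only genes. The knockout library listed 30 serpins and the control library 27. In the knockout library alone stood Serpina1e, Serpina3a, Serpina5 (protein C inhibitor) and Serpina11, each with at most 2 expected counts. In the control library alone stood Serpinb1c, with 1 count. Of the 31 listed serpins, 13 reached 1 FPKM in at least 1 library, 6 of them in clade A, 5 in clade B, 1 in clade E and 1 in clade F. Some of the 13 passed this minimum through only 1 library. Serpinb8 did so in the knockout sample, and Serpina3k and Serpinb6b did so in the control sample.

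The listed genes were counted by position in the genome. On chromosome 12, the run of clade A genes that starts with Serpina10 and ends with Serpina3m held 27 genes, of which 6 reached 1 FPKM, 9 were listed below it and 12 were not listed. The clade B genes of chromosome 1 were mostly silent at this depth. Of these 12 genes 9 were not listed, among them Serpinb5 (maspin, an epithelial serpin), Serpinb7, Serpinb11, Serpinb12, Serpinb13 and the 4 Serpinb3 genes, relatives of the squamous cell carcinoma antigens. Serpinb8, at the other end of that run from Serpinb5, was the only gene of the run at 1 FPKM. On chromosome 13, 4 of 17 clade B genes reached 1 FPKM and 10 were not listed, including Serpinb9c to Serpinb9h and Serpinb6d and Serpinb6e. Serpinb5 is a gene known elsewhere to be silenced by promoter methylation, and it was listed in neither library. The remaining genes without a listing were Serpina10, Serpina7 (thyroxine-binding globulin), Serpina9, Serpina16, Serpina1f, Serpina3b, Serpina3f, Serpina3i, Serpina3j, Serpinb1b, Serpine3, Serpini2 and the pseudogenes Serpina3d-ps, Serpina3e-ps, Serpina3l-ps, Serpina4-ps1 and Serpinb1-ps1.

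**Figure D1:**
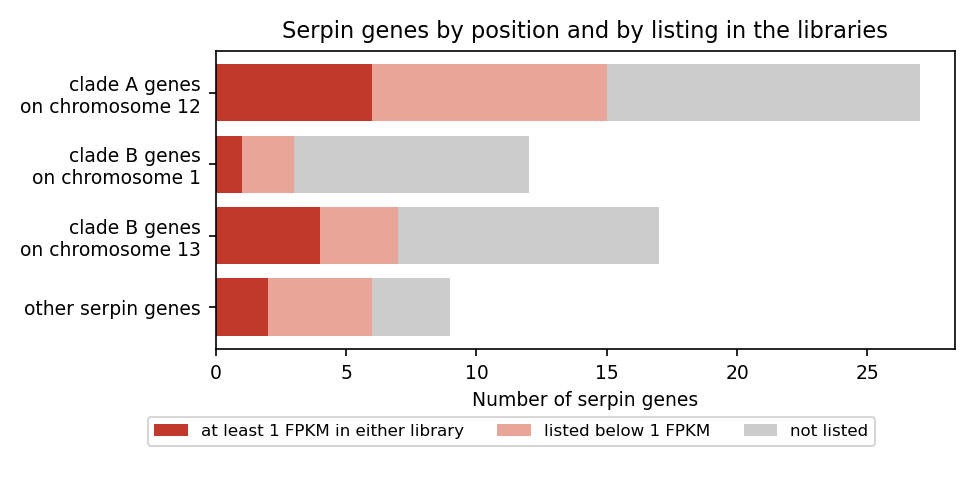
Number of serpin genes (x axis) in each position group (rows), split by whether the gene reached 1 FPKM in either library, was listed below 1 FPKM, or was not listed. The clade B genes of chromosome 1 have 1 gene at 1 FPKM or more out of 12, against 4 of 17 for those of chromosome 13 and 6 of 27 for the clade A genes of chromosome 12.

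Non-whole expected counts, a sign of reads divided between genes, were found in 7 listed serpins, all of clade A. These were Serpina1a, Serpina1b, Serpina1c, Serpina1d and Serpina1e, the mouse copies of alpha-1-antitrypsin, and the neighbours Serpina3k and Serpina3m. A count was called whole when it lay within 0.05 of a whole number. The other 24 listed serpins had whole counts in both libraries. Over all listed genes, 94.2% had whole counts in the knockout library and 94.1% in the control library. The sequence of the transcripts was then compared between the serpins with and without whole counts. RefSeq transcripts of 30 listed serpins could be matched to GENCODE M21 sequences, and each transcript was cut into all of its 50-base words. Some of these sequences are longer than the transcripts behind the deposited counts. Serpina3c, for example, has 2213 exonic bases here and a deposited length of 1690. The shares below therefore describe the matched sequences. Among the 7 genes with non-whole counts, 13.7% to 73.0% of the words also occurred in another gene. Among the 23 matched genes with whole counts the share ran from 0% to 11.7%, with the highest share in Serpina3g. That gene had 3 counts in the knockout sample and 9 in the control sample, and counts this low can be whole despite shared sequence. Reads are divided only between genes that share sequence, so a higher share in the 7 genes follows in large part from how expected counts are made. Serpina3c shared 4.07% of its words and Serpinb6a 1.42%, while Serpine2 and Serpinf1 shared 0%.

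**Figure D2:**
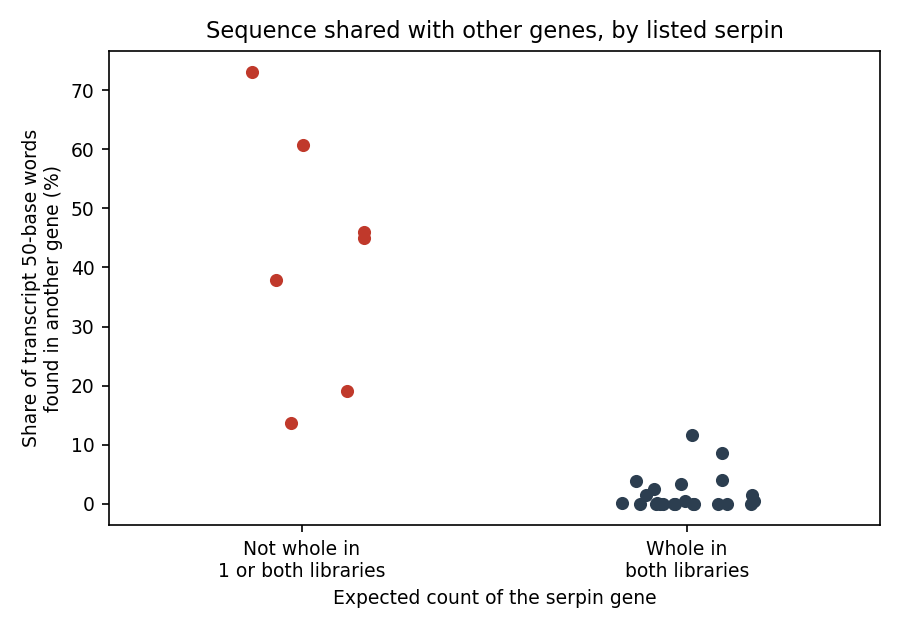
Share of the distinct 50-base words of a serpin's transcripts that also occur in another gene (y axis, percent), for genes with a non-whole expected count in 1 or both libraries (7 genes) and genes with whole counts in both (23 genes). Each point is 1 gene, and the horizontal spread within a column carries no value. The lowest of the left column is 13.7% and the highest of the right column is 11.7%.

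The coding sequences of Serpina1a to Serpina1e were 96.3% to 98.5% identical over 1242 aligned bases in the 10 pairs. The differences were unevenly placed. The 60-base stretch with the most differing columns began at base 1101 of the 1242 coding bases of Serpina1b, near the end that encodes the reactive centre loop, and 18 of its 60 columns differed between genes. The 5 genes are shown over this stretch because it is where reads can best be told apart. Capitals mark the columns that are not the same in all 5, and all 5 genes lie on chromosome 12.
Serpina1a: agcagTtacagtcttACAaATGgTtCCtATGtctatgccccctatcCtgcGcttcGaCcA
Serpina1b: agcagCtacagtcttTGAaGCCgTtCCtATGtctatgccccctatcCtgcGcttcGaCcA
Serpina1c: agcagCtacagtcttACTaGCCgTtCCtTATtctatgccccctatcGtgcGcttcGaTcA
Serpina1d: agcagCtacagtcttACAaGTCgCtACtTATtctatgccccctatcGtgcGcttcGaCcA
Serpina1e: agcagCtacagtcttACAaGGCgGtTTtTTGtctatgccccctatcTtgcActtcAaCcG

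Promoters of serpins held few CG dinucleotides, the sites that DNA methyltransferases act on. The promoter table of RefSeq (build GRCm38.p6) gives a 300-base window around each start site, and it matched 52 of the 65 serpins with 61 windows. Serpin windows held a median of 3 CG dinucleotides, against 7 over all 32851 windows and 20 over the windows of genes with at least 1 FPKM. Among serpins the median was 4.5 for the genes that reached 1 FPKM, 4 for those listed below it and 1 for those not listed. The median of 4.5 rests on 12 windows of 11 genes, since Serpina3k and Serpinb1a had no window. The near-identical Serpina1a to Serpina1d gave windows with 4, 5, 3 and 4, so these windows are not independent. Only 5 of the 61 serpin windows, 8.20%, had at least 10, against 43.5% of all windows. Windows of serpins that reached 1 FPKM and had at least 10 belonged to Serpine2, with 41, and to 1 of the 2 start sites of Serpinb6a, with 25. The minimum of 10 was chosen after the values were seen. These counts describe the reference sequence, and methylation itself was not measured.

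**Figure D3:**
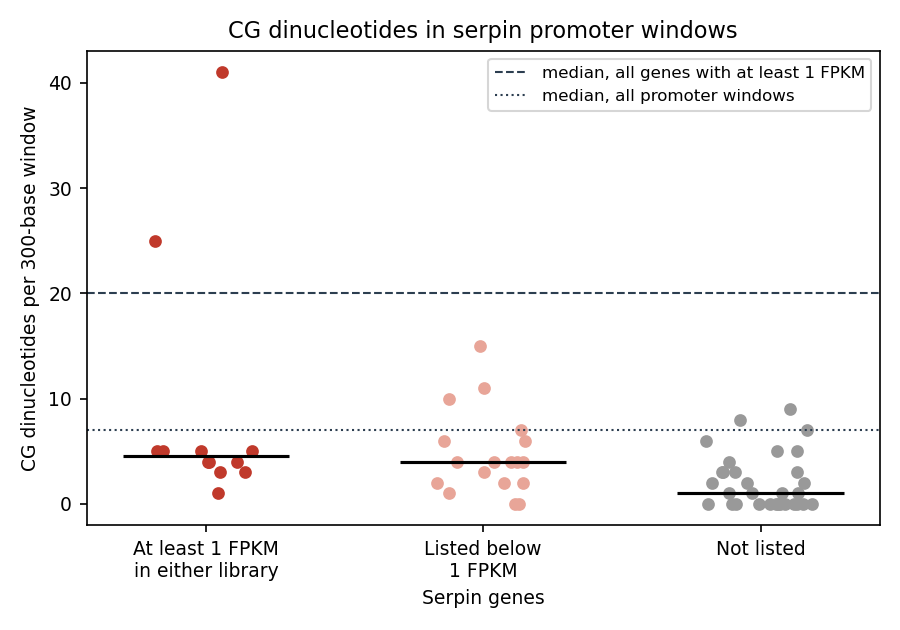
CG dinucleotides per 300-base promoter window (y axis) for serpin genes that reached 1 FPKM, were listed below it, or were not listed (x axis). Each point is 1 window, short black lines are medians (4.5, 4 and 1), the dashed line is the median of 20 over windows of genes with at least 1 FPKM, and the dotted line is the median of 7 over all windows. The first group has 12 windows of 11 genes, among them the near-identical Serpina1a to Serpina1d.

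The 250 bases before the start site are shown for Serpina3c, which passed the rule of size given below, for 2 abundant serpins with counting intervals above 1, for Serpinb6b, with an interval below 1, and for Serpine2, the richest in CG. Every CG is in capitals. Serpina3c has none in this stretch, Serpinf1 has 2, the CG-rich start site of Serpinb6a has 20, Serpinb6b has 3 and Serpine2 has 34.
Serpina3c, chr12:104153873-104154122, minus strand: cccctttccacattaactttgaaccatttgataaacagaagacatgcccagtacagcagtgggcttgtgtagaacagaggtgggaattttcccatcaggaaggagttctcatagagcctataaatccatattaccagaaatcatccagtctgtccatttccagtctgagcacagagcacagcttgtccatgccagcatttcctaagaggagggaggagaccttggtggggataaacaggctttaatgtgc
Serpinf1, chr11:75422624-75422873, minus strand: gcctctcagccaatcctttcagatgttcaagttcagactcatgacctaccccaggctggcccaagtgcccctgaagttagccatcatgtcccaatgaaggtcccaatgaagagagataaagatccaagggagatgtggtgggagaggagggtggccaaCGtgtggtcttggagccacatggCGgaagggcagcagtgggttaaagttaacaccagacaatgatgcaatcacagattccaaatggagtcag
Serpinb6a, chr13:34002795-34003044, minus strand: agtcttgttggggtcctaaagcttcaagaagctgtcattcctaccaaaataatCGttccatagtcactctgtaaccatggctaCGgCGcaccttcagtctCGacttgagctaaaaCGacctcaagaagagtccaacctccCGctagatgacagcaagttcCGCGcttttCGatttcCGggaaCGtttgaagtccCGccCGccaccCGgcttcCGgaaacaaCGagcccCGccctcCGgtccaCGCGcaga
Serpinb6b, chr13:32965011-32965260, plus strand: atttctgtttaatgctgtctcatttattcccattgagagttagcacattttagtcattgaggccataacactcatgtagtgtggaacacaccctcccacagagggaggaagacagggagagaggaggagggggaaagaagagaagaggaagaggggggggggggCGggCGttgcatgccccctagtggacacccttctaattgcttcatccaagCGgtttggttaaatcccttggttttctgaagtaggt
Serpine2, chr1:79858666-79858915, minus strand: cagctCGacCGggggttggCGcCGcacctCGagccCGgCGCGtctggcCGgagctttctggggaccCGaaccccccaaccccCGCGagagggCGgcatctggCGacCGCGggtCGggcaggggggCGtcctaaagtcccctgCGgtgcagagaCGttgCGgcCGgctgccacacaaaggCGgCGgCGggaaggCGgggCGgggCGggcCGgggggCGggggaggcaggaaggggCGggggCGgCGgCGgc

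Short motifs were searched in the 300-base windows on both strands. TATAAA was found in 18 of 61 serpin windows, 29.5%, against 13.6% of all windows. By level it was in 1 of 12 windows of serpins that reached 1 FPKM, that of Serpina3c, in 5 of 18 windows of those listed below it and in 12 of 31 windows of those not listed, against 7.22% of windows of all genes with at least 1 FPKM. TTCNNNGAA, the form bound by STAT factors, was found in 11 serpin windows, 18%, against 8.30% of all windows, and in 1 of the 12 windows of serpins that reached 1 FPKM, not that of Serpina3c. TGTTCT, a part of the glucocorticoid response element, was found in 24 serpin windows, 39.3%, against 19.0% of all windows. The near-identical Serpina1a to Serpina1e account for 5 of these 24. It was in 6 of the 12 windows of serpins that reached 1 FPKM, against 12.4% of windows of all genes with at least 1 FPKM. These 6 were the windows of Serpina3c, Serpinb8 and the near-identical Serpina1a to Serpina1d. The full element, AGAACA and TGTTCT with 3 bases between them on the same strand, contains TGTTCT and was in no serpin window and in 3 of all 32851. CCAAT was in 34.4% of serpin windows and 37.4% of all windows. Some genes have overlapping windows that count the same bases again. Among serpins these were Serpina7 and Serpinb2 for TATAAA, and Serpina11, Serpina3f and Serpinb2 for TTCNNNGAA. They were Serpina3f for TGTTCT and Serpina11 for CCAAT. The 32851 windows likewise come from 27025 genes.

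Together the 31 listed serpins summed to 174 FPKM in the knockout sample and 120.1 FPKM in the control sample. Serpinf1 and Serpinb6a made up 70.1% of the knockout sum and 65.7% of the control sum. With Serpina3c added, the 3 genes summed to 143 FPKM in the knockout sample and 87.9 FPKM in the control sample. The other 28 listed genes summed to 31.0 FPKM in the knockout sample and 32.3 FPKM in the control sample.

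**Figure D4:**
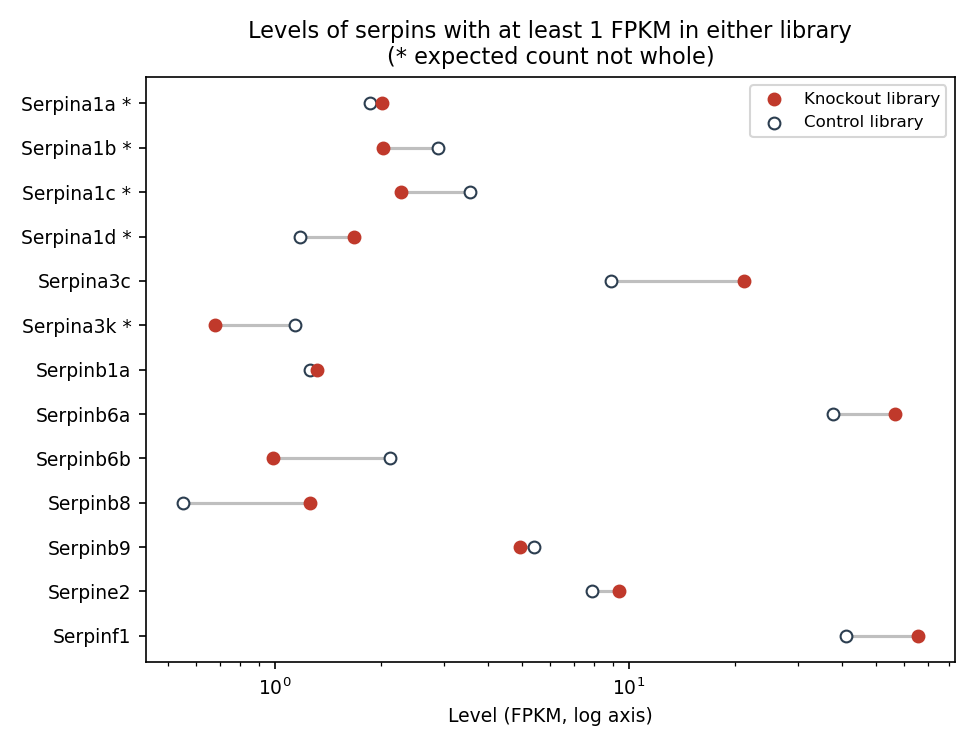
Level in FPKM (log axis) of the 13 serpins with at least 1 FPKM in either library. Filled points are the knockout library, open points the control library, and an asterisk marks genes whose expected count was not whole. Serpinf1, Serpinb6a and Serpina3c lie to the right in both libraries and further right in the knockout sample.

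A gene counted as higher or lower when its log2 ratio of FPKM + 1 lay at or beyond 1 or -1 and the counting interval of its FPKM ratio excluded 1. By this rule 1 of the 13 serpins, Serpina3c, was higher in the knockout sample, and none was lower. Over the 11746 genes that reached 1 FPKM in 1 or both libraries, 0.902% were higher and 0.673% lower by the same rule. A weaker criterion, the interval alone, was met above 1 by 4 of the 13 (Serpina3c, Serpinb6a, Serpinb8 and Serpinf1) and below 1 by Serpinb6b. Serpinb8 and Serpinb6b are among the 13 only through the library where each was higher, so their place in this count depends on the values compared. Over all tested genes 18.2% had an interval above 1 and 22.4% had one below 1. The interval narrows with depth, so abundant genes meet the criterion at smaller differences. The median log2 ratio of the 13 was 0.07, with 8 above 0 and 5 below, against a median of -0.03 over all tested genes. In the 8 serpins of the 13 with whole counts the median was 0.39.

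**Figure D5:**
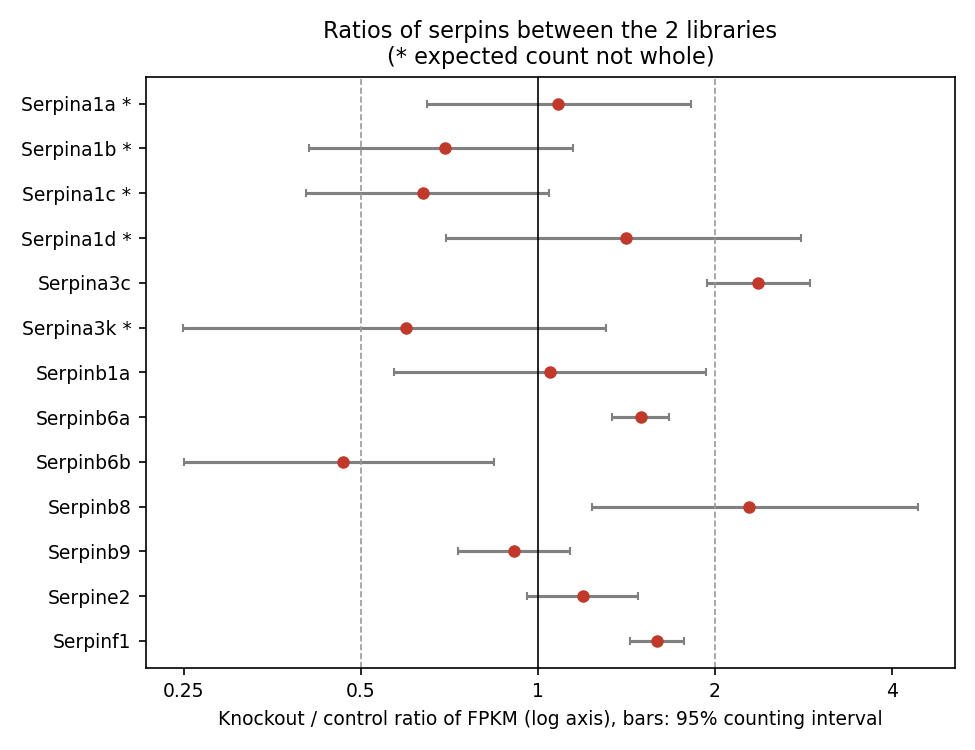
Knockout over control ratio of FPKM (log axis) for the 13 serpins with at least 1 FPKM in either library, with exact 95% counting intervals as bars. The solid line is a ratio of 1, dashed lines are ratios of 0.5 and 2, and an asterisk marks genes with non-whole expected counts. Serpina3c, Serpinb6a, Serpinb8 and Serpinf1 have intervals above 1, and Serpinb6b has one below 1. Serpinb8 and Serpinb6b reached 1 FPKM only in the library where each was higher.

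Among the antichymotrypsin-like genes, a clade A group that was expanded by duplication in rodents, Serpina3c was the only one counted here well above 1 FPKM. Serpina3c (Entrez gene 16625) was at 21.1 FPKM in the knockout sample and 8.9 FPKM in the control sample, from 348 counts in the knockout and 141 in the control. The ratio was 2.37 (1.94 to 2.90). Its level exceeded that of 79.9% of listed genes in the knockout sample and 63.1% in the control sample. Serpina3n, which lies in the same run of genes and is not counted here, had a similar ratio of 2.40 (2.08 to 2.77), at 33.0 FPKM in the knockout sample and 13.8 FPKM in the control sample.

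The other listed genes of that group that are counted here were near the lower limit. Serpina3a had 2 counts in the knockout sample and was absent from the control list. Serpina3k, a kallikrein-binding protein of liver, was at 0.68 FPKM in the knockout sample and 1.14 FPKM in the control sample, a ratio of 0.596 (0.249 to 1.30). Its neighbour Serpina3m was at 0.49 FPKM in the knockout sample and 0.98 FPKM in the control sample, just under the minimum of 1 FPKM. Their counts were whole in the knockout sample, at 11 and 8, and not whole in the control sample, at 17.61 and 15.39. The sum of the 2 genes depends less on how reads were divided. It was 1.17 FPKM in the knockout sample and 2.12 FPKM in the control sample, from 19 and 33 counts. The ratio was 0.552 with an interval of 0.296 to 0.999 that only just excluded 1. Neither gene alone had an interval that excluded 1. Serpina3g, a cytosolic inhibitor of cathepsins known from T cells, had 3 counts in the knockout sample and 9 in the control sample, with an interval of 0.0556 to 1.28. The protein-coding genes on either side of Serpina3c are Serpina3b and Serpina3f, and neither was listed.

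The alpha-1-antitrypsin copies, whose product blocks neutrophil elastase, were low in both libraries. Serpina1a was at 2.01 FPKM in the knockout sample and 1.86 FPKM in the control sample. Serpina1b was at 2.02 FPKM in the knockout sample and 2.90 FPKM in the control sample. Serpina1c was at 2.28 FPKM in the knockout sample and 3.57 FPKM in the control sample, and Serpina1d at 1.67 FPKM in the knockout sample and 1.18 FPKM in the control sample. Ratios ran from 0.639 for Serpina1c to 1.42 for Serpina1d, and all 4 intervals included 1. The counts of these copies were not whole, and the part of divided reads in the differences between copies was not tested. Summed over Serpina1a to Serpina1e, the level was 8.06 FPKM in the knockout sample and 9.51 FPKM in the control sample, a ratio of 0.848 (0.656 to 1.09). Serpina1c also shares 429 of its 1361 exonic bases with B430119L08Rik on the opposite strand, and the protocol names no strand.

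Clade A genes that carry hormones or act as adipokines were almost undetected. Serpina6, corticosteroid-binding globulin, had 10 counts and 0.70 FPKM in the knockout sample and 2 counts and 0.15 FPKM in the control sample. Its ratio of 4.67 had an interval of 0.994 to 43.8, so the difference was not resolved at this depth. Serpina12, vaspin, had 2 counts in the knockout sample and 1 in the control sample. Serpina10, the protein Z-dependent inhibitor of factor X, was listed in neither. Serpina3h, a pseudogene, had 1 count in each library.

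Hepatocyte genes were measured beside these liver-type serpins. All 10 hepatocyte markers were listed in both libraries. Of the 8 that reached 1 FPKM, 2 had a log2 ratio above 0 and 6 below. They summed to 146 FPKM in the knockout sample and 135 FPKM in the control sample, most of it Trf (transferrin), at 107 FPKM in the knockout sample and 84.0 FPKM in the control sample. Alb (albumin) was at 10.4 FPKM in the knockout sample and 17.3 FPKM in the control sample, a ratio of 0.60 (0.503 to 0.716). Ahsg (fetuin-A) had a ratio of 0.458 (0.284 to 0.724). Apoa2, at 16.01 FPKM in the knockout sample and 15.09 FPKM in the control sample, had a ratio of 1.06. Apoa1, Ttr, Apoc3 and Ambp had ratios of 0.656, 0.986, 0.801 and 0.341. The intervals of Apoa2, Apoa1, Ttr, Apoc3 and Ambp all included 1. The part of this signal in the Serpina1, Serpina3k and Serpina3m values was not tested.

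Intracellular serpins of clade B were led by Serpinb6a, the mouse relative of the inhibitor of cathepsin G. Serpinb6a (20719) was at 56.6 FPKM in the knockout sample and 37.8 FPKM in the control sample, from 797 counts in the knockout and 514 in the control, a ratio of 1.5 (1.34 to 1.67). It exceeded 91.0% of listed genes in the knockout sample and 86.9% in the control sample. Of its 2003 exonic bases, 536 overlap exons on the opposite strand, 499 of them from 1110046J04Rik and 37 from Ripk1. Those 2 genes were low beside it. The first was at 0.83 FPKM in the knockout sample and 0.43 FPKM in the control sample, and Ripk1 at 6.53 FPKM in the knockout sample and 5.36 FPKM in the control sample.

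Its paralogue Serpinb6b went the other way. Serpinb6b (20708) was at 0.99 FPKM in the knockout sample and 2.12 FPKM in the control sample, a ratio of 0.467 (0.25 to 0.841) from 18 counts in the knockout and 37 in the control. On the log2(FPKM + 1) scale the difference was -0.65, short of the limit of -1. Serpinb6b shares 2.43% of its words with other genes and the far more abundant Serpinb6a 1.42%, and the part of shared reads in the Serpinb6b values was not tested. Serpinb6c had 1 count in the knockout sample and 5 in the control sample. Serpinb6a and Serpinb6b lie in the same run of clade B genes on chromosome 13, towards opposite ends of it.

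Serpinb8, which in humans inhibits the proprotein convertase furin, was at 1.26 FPKM in the knockout sample and 0.55 FPKM in the control sample. Its ratio was 2.29 (1.24 to 4.43) from 35 counts in the knockout and 16 in the control, and its log2 ratio of FPKM + 1 was 0.54. Serpinb9, the inhibitor of granzyme B that protects cells from cytotoxic granules, was at 4.92 FPKM in the knockout sample and 5.40 FPKM in the control sample, a ratio of 0.911 (0.732 to 1.13). Serpinb1a, an inhibitor of neutrophil elastase inside granulocytes, was at 1.32 FPKM in the knockout sample and 1.26 FPKM in the control sample, a ratio of 1.05 (0.571 to 1.93). Intervals of both included 1, and for Serpinb1a a difference of nearly 2-fold in either direction was not excluded. Serpinb2 (plasminogen activator inhibitor 2), Serpinb9b and Serpinb10 had at most 4 counts in each library.

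The granule proteases that clade B serpins block are products of leukocytes. Of 10 such genes 5 reached 1 FPKM, and none passed the rule of size in either direction. The mast cell proteases were the most abundant. Mcpt4 was at 5.20 FPKM in the knockout sample and 8.94 FPKM in the control sample, a ratio of 0.582 (0.399 to 0.839). Tpsb2 was at 6.34 FPKM in the knockout sample and 5.60 FPKM in the control sample, and Cma1 at 5.97 FPKM in the knockout sample and 6.41 FPKM in the control sample. Neutrophil elastase (Elane) had 3 counts in the knockout sample and none listed for the control. Of 8 neutrophil markers, Ly6g, Camp, Ltf and Ngp were listed in neither library. S100a8 passed the rule of size at 9.75 FPKM in the knockout sample and 3.99 FPKM in the control sample, and the list summed to 13.4 FPKM in the knockout sample and 5.42 FPKM in the control sample. Of 11 membrane and secretory proteases 5 reached 1 FPKM, and none passed the rule of size. Furin, the target of Serpinb8, was at 18.4 FPKM in the knockout sample and 22.6 FPKM in the control sample, a ratio of 0.815 (0.739 to 0.898).

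Among regulators of plasminogen activation the intervals of Plat and Plaur lay above 1, that of Vtn lay below 1, and those of Serpine2 and Plau included 1. Serpine2, protease nexin 1, which blocks thrombin and urokinase at cell surfaces, was at 9.39 FPKM in the knockout sample and 7.88 FPKM in the control sample, a ratio of 1.19 with an interval of 0.959 to 1.48 that included 1. Plat, tissue plasminogen activator, was at 5.24 FPKM in the knockout sample and 2.69 FPKM in the control sample, a ratio of 1.95 (1.44 to 2.66). Plaur, the urokinase receptor, was at 4.88 FPKM in the knockout sample and 2.0 FPKM in the control sample, a ratio of 2.44 (1.53 to 4.0). Its log2 ratio of FPKM + 1 of 0.97 was just under the limit. Plau, urokinase itself, was at 6.45 FPKM in the knockout sample and 6.40 FPKM in the control sample, a ratio of 1.01 (0.795 to 1.28). Vtn, vitronectin, an adhesion protein of plasma and matrix, was lower, at 4.35 FPKM in the knockout sample and 7.43 FPKM in the control sample, a ratio of 0.585 (0.433 to 0.787). Lrp1, the receptor that clears serpin complexes, had a ratio of 1.12 (1.07 to 1.17). A list of 5 proteases held Plat, Plau and Plg (plasminogen), and also Hgfac and Htra1, which are not named for fibrinolysis. Of these 5, 3 reached 1 FPKM, namely Plat, Plau and Htra1. Htra1 was at 33.2 FPKM in the knockout sample and 35.1 FPKM in the control sample. Of 14 serpin receptors and cofactors 12 reached 1 FPKM, and no gene of either list passed the rule of size.

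The clotting and fibrinolysis serpins Serpinc1, Serpind1 and Serpinf2 were close to the limit of detection. Serpinc1, antithrombin, had 21 counts and 0.98 FPKM in the knockout sample and 14 counts and 0.68 FPKM in the control sample, a ratio of 1.44 (0.699 to 3.06). Serpind1, heparin cofactor II, had 8 counts in the knockout sample and 1 in the control sample, with an interval of 0.992 to 328. Serpinf2, alpha-2-antiplasmin, had 5 counts in each library. Among 9 clotting genes, F7 (coagulation factor VII) was the member past the rule of size. It had 39 counts and 2.13 FPKM in the knockout sample, against 2 counts and 0.11 FPKM in the control sample. Its ratio of 19.4 had an interval of 5.01 to 166. F10, factor X, was at 1.05 FPKM in the knockout sample and 0.46 FPKM in the control sample, a ratio of 2.28 (1.10 to 5.08). F7 and F10 passed the minimum of 1 FPKM through the knockout sample only. F3, tissue factor and the partner of factor VII, was at 27.4 FPKM in the knockout sample and 25.9 FPKM in the control sample, a ratio of 1.06 (0.930 to 1.20).

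Serpinf1 was the most abundant serpin counted here in both libraries. It blocks no protease, restrains vessel growth and binds Pnpla2, the adipose triglyceride lipase. Serpinf1 (20317) was at 65.6 FPKM in the knockout sample and 41.1 FPKM in the control sample, from 954 counts in the knockout and 575 in the control, a ratio of 1.59 (1.44 to 1.77). Its log2 ratio of FPKM + 1 was 0.66. Pnpla2 was at 1038 FPKM in the knockout sample and 1236 FPKM in the control sample, a ratio of 0.839 (0.826 to 0.853). The other candidate receptors Plxdc2 and Rpsa had ratios of 1.18 (0.927 to 1.49) and 0.924 (0.894 to 0.954). Serpini1, neuroserpin, an inhibitor of tissue plasminogen activator made by neurons, was at 0.64 FPKM in the knockout sample and 0.90 FPKM in the control sample, a ratio of 0.711 (0.378 to 1.32).

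Markers of other cell types also differed between the libraries. All 7 macrophage markers had a log2 ratio above 0, none passed the rule of size, and they summed to 446 FPKM in the knockout sample and 290 FPKM in the control sample. Most of this was Lyz2, at 309 FPKM in the knockout sample and 194 FPKM in the control sample, with counts that were not whole. Of 7 fibroblast markers 6 were above 0, with sums of 325 FPKM in the knockout sample and 247 FPKM in the control sample. Of the 6 smooth muscle and pericyte markers that reached 1 FPKM, 4 were above 0 and Acta2 passed the rule of size, with list sums of 147 FPKM in the knockout sample and 135 FPKM in the control sample. The 7 endothelial markers were all below 0, with sums of 124 FPKM in the knockout sample and 166 FPKM in the control sample. The 7 brown adipocyte markers had 2 above 0 and 5 below, with sums of 8427 FPKM in the knockout sample and 9674 FPKM in the control sample. In the epithelial list Krt14 was past the rule of size on the lower side, and the sums were 13.7 FPKM in the knockout sample and 25.6 FPKM in the control sample. The counts of Krt14 and Krt5 were not whole. Krt10, with whole counts, had a ratio of 0.945 (0.644 to 1.39). Mesothelial markers were near 0, with Msln, Upk3b, Wt1 and Upk1b listed in neither library and none at 1 FPKM. The part of these cell types in the values of Serpina3c, Serpinb6a and Serpinf1 was not tested.

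Cysteine cathepsins, which several clade A and clade B serpins can also block, were abundant. All 7 reached 1 FPKM, 6 had a log2 ratio above 0, and none passed the rule of size, with a median of 0.27. Ctsb was at 469 FPKM in the knockout sample and 388 FPKM in the control sample, a ratio of 1.21 (1.19 to 1.23). Ctss, a cathepsin of macrophages and other antigen-presenting cells, had the largest difference, at 46.3 FPKM in the knockout sample and 28.3 FPKM in the control sample, a ratio of 1.63 (1.43 to 1.86). Ctsz was lower, with a ratio of 0.910 (0.874 to 0.949).

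The 18 listed serpins below 1 FPKM summed to 93.1 counts in the knockout sample and 90.4 counts in the control sample. Of these, 13 were listed in both libraries, and none of the 13 had a counting interval that excluded 1. Only 4 of the 18 had 10 or more counts in either library. The highest value among them was 0.98 FPKM. For these genes the depth does not show a difference in either direction.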

How the data were processed

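RNA was extracted from frozen brown adipose tissue, and libraries of fragmented polyadenylated RNA were PCR-amplified, as the labels' protocols say. The authors deposited an expected count, a transcript length in bases and an FPKM value to 2 decimals for each gene, per the file headers. RSEM and the build mm9 are named in the submitters' processing notes, and which aligner was used is not stated in the sources used here. Symbols came from the RefSeq gene table of GRCm38.p6 by Entrez identifier, which matched 16134 of 16174 genes. A gene not listed in a library was set to 0 for sums, and no fold was given against it. Expected counts were rounded before exact conditional Clopper-Pearson intervals (scipy 1.17.1) were scaled to the FPKM ratio. A pseudocount of 1 FPKM, which understates differences of low genes, a minimum of 1 FPKM and a fold of 2 set the rule of size, which replaces a test because each genotype has 1 library. Coding sequences were aligned with mafft 7.526. The calculation was tested on data simulated with counting error alone, the error that the intervals assume. Such data cannot check divided reads, PCR copies or the spread between mice. Every listed serpin that is counted was named, and of each other list the members past the rule of size and some of the most abundant ones, with others chosen after their values were seen. The members and lists were chosen with earlier results of these data known. A gene of the family is not reported here, and no count or sum of serpins includes it.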

Additional observations from a re-analysis of the deposited data

How the results depend on the processing

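Serpina3c was higher by the rule of size with no filter on low values, with a minimum mean of 5 FPKM, with CPM in place of FPKM, with the median of all tested genes, -0.03, set to 0, with equal FPKM totals, with the trend with transcript length removed, and with non-whole genes left out. A pseudocount of 0.1 gave 2 higher serpins, Serpina3c and Serpinb8, and 1 lower, Serpinb6b. A pseudocount of 5 gave 0 higher, since it shrinks every ratio. At a fold of 1.5 there were 2 higher (Serpina3c and Serpinf1) and 1 lower (Serpinb6b), and at a fold of 4 there were 0 higher and 0 lower. Serpinb8 and Serpinb6b reached 1 FPKM only in the library where each was higher. All 13 serpins with at least 1 FPKM kept the sign of their log2 ratio under the 4 alternatives that rescale the values (CPM, median at 0, equal totals, length trend removed). A change of pseudocount or filter cannot turn a sign. The log2 ratio of Serpina3c ranged from 0.91 to 1.24 over the alternatives. The median of the members moved to 0.57 at a minimum mean of 5 FPKM, which leaves 5 serpins, to 0.39 with non-whole genes left out, and to 0.21 with equal FPKM totals, where 14 serpins rather than 13 reached the minimum. No paired analysis was possible because each genotype has 1 library. With 1 library per genotype, no alternative bears on the spread between mice.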

Other observations

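Protease inhibitors outside the serpin name were read from a list of 16 genes, of which 7 reached 1 FPKM and none passed the rule of size. Agt, angiotensinogen, has the serpin fold and no inhibitory role, and it was at 2.92 FPKM in the knockout sample and 1.43 FPKM in the control sample, a ratio of 2.04 (1.25 to 3.43). Itih5, an inter-alpha-trypsin inhibitor heavy chain abundant in fat, was at 44.7 FPKM in the knockout sample and 27.0 FPKM in the control sample, a ratio of 1.66 (1.57 to 1.75). Cst3, cystatin C, a secreted inhibitor of cysteine cathepsins, was at 1134 FPKM in the knockout sample and 1485 FPKM in the control sample, a ratio of 0.764 (0.742 to 0.787). Tfpi, the inhibitor of the tissue factor pathway, was at 3.71 FPKM in the knockout sample and 2.56 FPKM in the control sample, a ratio of 1.45 (1.03 to 2.05). Pzp, a broad protease trap of plasma that is related to alpha-2-macroglobulin, had 7 counts in the knockout sample and 27 in the control sample, a ratio of 0.25 (0.0919 to 0.588). Pzp was named after its values were seen, as was Tfpi.

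Hgfac, the activator of hepatocyte growth factor, was not listed in the knockout sample and had 7 counts in the control sample.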
